A study of Mus musculus with 107 samples.

Results

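The genes described here encode proteins of the mitochondrial ribosome. They were taken by name, as every gene symbol of the count table that consists of Mrpl or Mrps followed by digits only. There were 75 such genes among 21564 symbols, 49 named Mrpl and 26 named Mrps. Of the 75, 73 passed the expression filter of the tests between genotypes. Mrpl33 had too few counts, and Mrpl53 had 0 counts in all 107 eggs.

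Single mouse eggs were measured by Smart-seq2, in which cDNA is primed on poly(A) tails and strand is lost, and the values are counts per gene. Eggs came from C57BL/6J females of 2 to 3 months given 5 IU of pregnant mare serum gonadotropin 48 h before collection. The oocytes, isolated in 2.5 µM milrinone, were released from meiotic arrest and matured in culture, and all eggs were collected 38 to 40 h after germinal vesicle breakdown. Wildtype eggs numbered 29. The mos -/- eggs, called mutant here, numbered 61 and were labelled M1 (22 eggs), M2 (18) or M3 (21), names that are not explained. The 17 activated eggs were wildtype eggs that spent 2 h in calcium-free medium with 10 mM strontium chloride, a chemical start of development without sperm, from 15 to 16 h after germinal vesicle breakdown.

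No label ties eggs to animals, so an egg was not a replicate. The eggs of each group in each batch were added up, giving 9 sums of 5436993 to 36209306 counts. Batch 1 held 5 wildtype and 9 mutant eggs, and batch 2 held 24 wildtype, 52 mutant and all activated eggs. In batch 2 wildtype, mutant and activated eggs lay on different plates, so plate and group cannot be told apart there. Wildtype eggs of batch 2 were the shallowest, with a median of 207420 counts, and in 9 of them 50 genes took more than 35% of the counts. All 12 egg markers had counts in each of the 9 sums. Of 16 markers of granulosa and cumulus cells, 6 to 12 had counts in a sum. They summed to 109.4 raw CPM in activated eggs, the lowest, and to 220 to 315 in the other sums. In activated against wildtype eggs 8 of the 12 tested were below 0 (66.7%, against 45% of all genes). Among the 16, Fshr and Tnfaip6 had counts in activated eggs only and Ptx3 in none. Their part in the results was not tested. Mos itself, the mutated kinase gene, was lower in mutant sums (log2 fold -2.10 ± 0.40 SE, edgeR adjusted p = 0.0029). The library labelled M1 egg 6 of batch 1 went against this, with a raw Mos level of 17.9 CPM (counts-per-million) against 2.52 to 11.2 in the 5 wildtype eggs of that batch, and its effect is given beside the main results that rest on it. The library labelled wildtype egg 45 of batch 2 had the highest summed level of the members in its group, at 4055 CPM, and much of the wildtype counts of batch 2 for several of them, such as 65 of 68 for Mrps24 and 40 of 83 for Mrps15. Its effect is given in the same way. Both eggs were singled out after their values were seen.

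Mitochondria carry their own ribosome, of bacterial descent, that translates only the few proteins encoded by mitochondrial DNA, all of them parts of the respiratory chain. Its RNA comes from mitochondrial DNA, but every one of its proteins is encoded in the nucleus, made in the cytosol and imported. Some of these proteins have bacterial counterparts and others were gained by mitochondria. Eggs hold very many mitochondria and a store of maternal transcripts whose use is controlled largely through the length of the poly(A) tail. Among the 75 genes, 50 encode proteins of the large subunit and 24 of the small subunit. Mrps30 belongs to the large subunit in spite of its name. Mrps36, counted in neither, is a subunit of the 2-oxoglutarate dehydrogenase complex.

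The members together made up a small and similar part of the counts in every group. Their summed level was 1527 CPM in wildtype sums of batch 1 and 1669 in batch 2. M1 had 2194 and 2167, M2 had 1709 and 2050, and M3 had 1531 and 1937, in the order of batches. Activated eggs had 1780. These sums put M1 highest in both batches and wildtype lowest, but single eggs overlapped widely.

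In batch 1 the 5 wildtype eggs lay between 1277 and 1859 CPM, with a median of 1609. In batch 2 the 24 wildtype eggs ran from 575 to 4055 with a median of 1503, and the 9 eggs with counts in few genes were the lowest of them, at 575 to 1098. The medians of mutant eggs in batch 2 were 2306 in M1 (1349 to 4143, 16 eggs), 2190 in M2 (1520 to 3765, 16 eggs) and 1820 in M3 (1595 to 2986, 17 eggs). The 17 activated eggs spread least of the groups of batch 2, from 1522 to 2257 with a median of 1764. The deposited egg table gives activated eggs a number of growths, which it does not define, and eggs with 1 growth (8 eggs, median 1804) and with 2 growths (9 eggs, median 1740) overlapped.

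**Figure D1:**
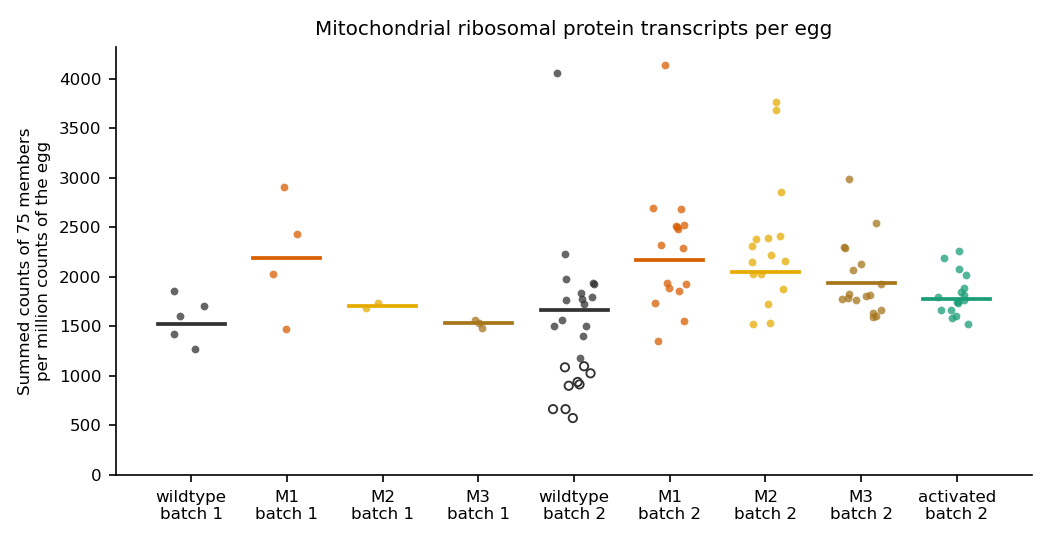
Summed raw CPM of the 75 members (y axis), by group and batch (x axis). Each point is 1 egg of at least 10000 counts, open points are the 9 wildtype eggs dominated by 50 genes, and horizontal lines are the values of the summed counts. Wildtype sums lie at 1527 and 1669 and M1 sums at 2194 and 2167, and the eggs of the groups overlap.

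Summed over the members, mutant eggs exceeded wildtype eggs of the same batch by a log2 ratio of 0.25 in batch 1 (SD 0.27 over the 3 mutant groups) and 0.30 in batch 2 (SD 0.08). The ratio of batch 1 was 0.19 without egg 6 of M1 and 0.08 under TMM scaling. The ratio of batch 2 was 0.50 without wildtype egg 45, 0.05 without the 9 wildtype eggs with counts in few genes and -0.02 under TMM scaling, which allows for genes that take a large share of the counts. Activated eggs differed from wildtype eggs of batch 2 by 0.09, and by 0.29 without egg 45, -0.15 without the 9 eggs and -0.24 under TMM scaling. In batch 2 the direction of the summed level thus turned with the scaling. These values are descriptions with no test.

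In raw CPM the large and the small subunit did not move alike against wildtype in batch 2. Large subunit members were at 1535, 1456 and 1442 CPM in M1, M2 and M3 against 1019 in wildtype, while small subunit members were at 629, 591 and 492 against 649. In activated eggs the values were 1252 and 527. Without wildtype egg 45 the wildtype levels were 889 and 564, and small subunit levels of M1 and M2 then lay above wildtype and those of M3 and activated eggs below. In batch 1 the small subunit was instead higher in all mutant groups (657, 515 and 539 against 428), and the large subunit was at 1533 in M1, 1191 in M2 and 989 in M3 against 1095. The 2 subunits therefore kept no common order between the batches. Of the large subunit levels of batch 2, Mrpl9 alone made up 300, 318 and 371 CPM in M1, M2 and M3. It made up 52.4 in wildtype and 143 in activated eggs.

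A few transcripts carried much of these sums. Mrpl9, Mrpl48, Mrps25, Mrpl3 and Mrpl10 held 30.4% to 40.7% of all member counts in a sum. Mrpl9 alone held 10.7% of them in wildtype eggs of batch 1 and 3.14% in batch 2, against 12.9% to 19.1% in the mutant sums and 8.06% in activated eggs.

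Levels between genes were compared as TMM-scaled CPM per kb of exon length, averaged over the 9 sums. The tested members had a median of 4.03 per kb, against 2.53 for all tested genes with a length, and ran from 0.0397 to 85.5. The highest were 4 large subunit proteins with bacterial counterparts, Mrpl9 (85.5), Mrpl18 (57.9), Mrpl10 (48.0) and Mrpl2 (45.3). The lowest were the large subunit genes Mrpl52 (0.335) and Mrpl23 (0.0397), which had 47 and 22 counts in all eggs. Small subunit members had a median of 4.46 and large subunit members of 4.0.

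These levels place subunits that the ribosome needs in near-equal numbers over a range of more than 3 orders of magnitude. Its low end rests on Mrpl23 alone, a gene of few counts, and Mrpl52, the next lowest, was at 0.335 per kb. Overlap with other genes limits single values: exons of 31 of the 75 members are overlapped by another gene, among them Mrpl9 by Oaz3, Mrpl18 by Tcp1, Mrpl10 by Gm11574, Mrpl27 by Eme1 and Mrps30 by B430218F22Rik, each on the opposite strand. Mrpl23, Mrpl48 and Mrps36 have named pseudogenes. Without strand, reads of such pairs cannot be told apart, and their levels are uncertain. Mrps30 was at 3.82 per kb and Mrps36 at 2.40.

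**Figure D2:**
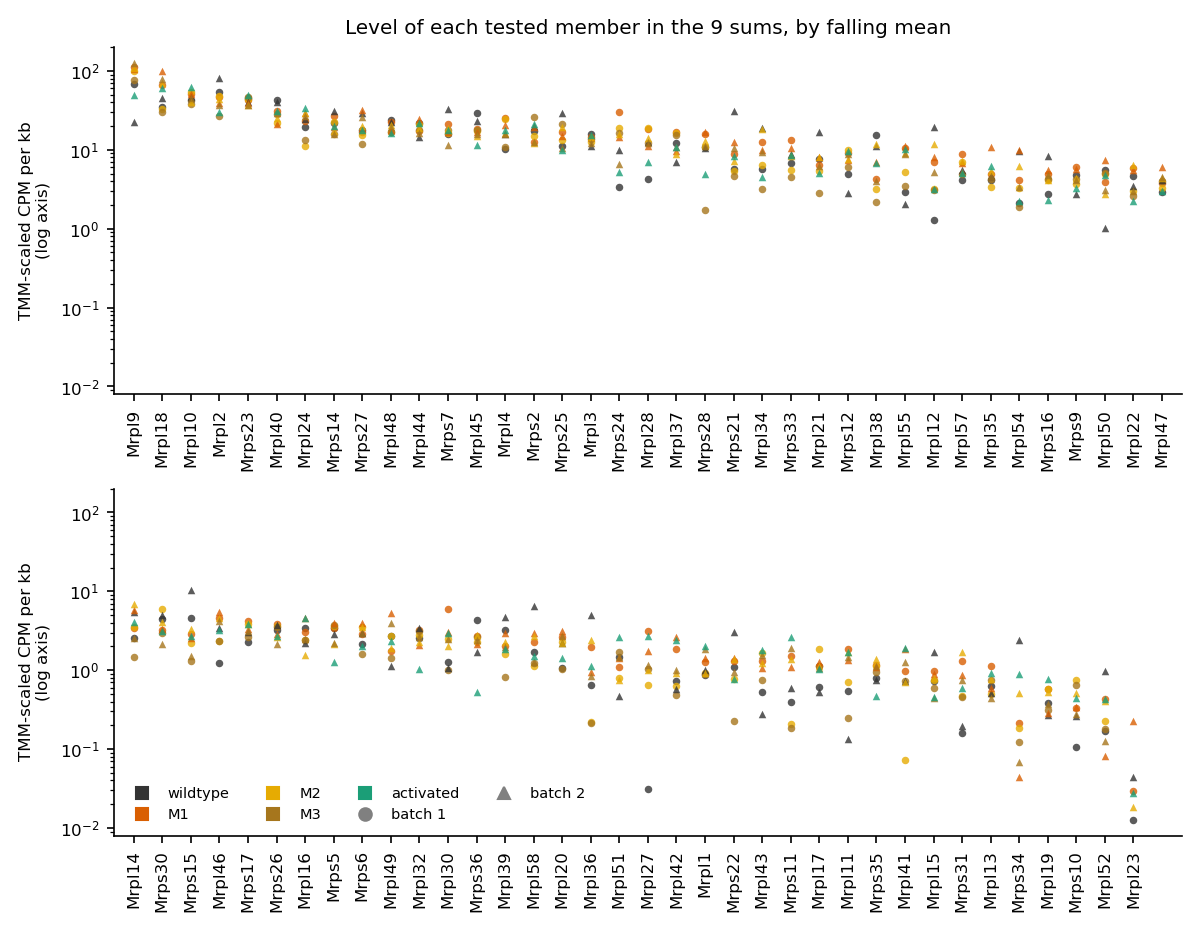
Level of each tested member in the 9 sums, as TMM-scaled CPM per kb of exon length on a log axis (y axis), with members in falling order of their mean (x axis, continued in the lower panel). Colours are groups, circles batch 1 and triangles batch 2; values of 0 are not drawn. Mrpl9 has the highest mean, 85.5, and Mrpl23 the lowest, 0.0397.

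Some members held a nearly fixed level in all groups. Over the 69 members seen in each of the 9 sums, the highest sum exceeded the lowest by a median of 3.34 times, and 8 members stayed under 2 times. The steadiest was Mrps23, a small subunit protein named here after its values were seen, with 57.8 to 73.5 CPM in mutant sums, 63.3 and 69.9 in wildtype sums and 78.03 in activated eggs. Mrpl10, which contributes to the stalk of the large subunit, was at 65.3 to 92.7 CPM in mutant sums, 73.98 and 80.6 in wildtype sums and 106 in activated eggs. Mrpl10 did not pass the test in mutants (log2 fold 0.04 ± 0.21, edgeR adjusted p = 0.987) or in activated eggs (0.47 ± 0.33, edgeR adjusted p = 0.411).

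Mutant and wildtype eggs were set side by side to see how egg transcripts differ where mos, whose kinase holds mature eggs in arrest, is mutated. Few members changed: 4 of 73, or 5.48%, passed the test, against 9.38% of all 13832 genes. Mrpl38, Mrpl2 and Mrps15 fell and Mrpl27 rose, where 4.03% of all genes fell and 5.36% rose. Mrpl27, the only member to rise, passed the expression filter only through sums where it was high. The median log2 fold of the members was 0.01, beside 0.06 for all genes, and 34 of 73 were below 0 (46.6%, against 46.3% of all genes). At an unadjusted p under 0.05 there were 18 members, 9 in each direction (24.7%, against 22.2%). This count moved with wildtype egg 45. Without it 11 of 72 members passed (6 higher and 5 lower, 15.3%), against 12.2% of all genes, the median was 0.20, beside 0.08, and 26 of 72 were below 0. Mrps15 lost its call, and Mrpl12, Mrpl17, Mrpl21, Mrpl28, Mrpl40, Mrpl45, Mrps10 and Mrps24 gained one.

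Mrpl38, a large subunit protein that mitochondria gained, fell with the lowest adjusted p of the members. It lies on chromosome 11 from 116131817 to 116138868 of GRCm38, on the minus strand, and no exon of another gene overlaps it. In batch 1 the 5 wildtype eggs held 48.3, 38.2, 34.96, 37.9 and 24.4 raw CPM of Mrpl38. Eggs of M2 held 5.28 and 10.4, and eggs of M3 held 8.62, 4.21 and 3.70. Eggs of M1 held 34.4 (egg 6), 3.28, 4.48 and 5.48. All mutant eggs of batch 1 other than egg 6 of M1 thus lay below every wildtype egg, and egg 6 lay within the wildtype range.

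In batch 2 single eggs varied far more and overlapped. The 24 wildtype eggs had 0 to 134 raw CPM of Mrpl38 with a median of 7.51. M1 eggs had a median of 12.8 (0 to 161), M2 eggs 16.6 (1.47 to 473) and M3 eggs 9.94 (0 to 33.9). The medians of batch 2 were therefore not lower in mutants, although the sum of all wildtype eggs, 28.4 CPM after TMM scaling, lay above those of M1 (17.7) and M3 (10.4) and below that of M2 (30.2). A single egg held 174 of the 338 counts of M2, and egg 45 held 45.1% of those of wildtype. The raw level of the wildtype sum was 24.5 CPM, and 14.6 without egg 45.

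Over both batches the log2 fold of Mrpl38 was -1.59 ± 0.36, from 6 mutant sums and 2 of wildtype (edgeR adjusted p = 0.00957). The fold was -1.87 without egg 6 of M1 (edgeR adjusted p = 0.01) and -1.39 without wildtype egg 45 (edgeR adjusted p = 0.0436). The call was lost without the wildtype sum of batch 1 (-0.66, edgeR adjusted p = 0.426), without the M1 sum of batch 1 (-1.61, edgeR adjusted p = 0.0555), and with each egg thinned to 60000 counts (-0.10, edgeR adjusted p = 0.933). Ratios of mutant to wildtype within a batch were -2.25 in batch 1 and -0.55 in batch 2 on the log2 scale, and the test of that difference gave an edgeR adjusted p of 0.588.

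Mrps15, a protein of the small subunit with a bacterial counterpart (chromosome 4, 126046925 to 126055532), fell to a similar degree. Wildtype eggs of batch 1 held 9.96, 5.42, 6.64, 9.09 and 6.02 raw CPM of Mrps15. M2 eggs held 2.89 and 4.28, M3 eggs 0.663, 2.63 and 2.84, and M1 eggs 14.1 (egg 6), 1.31, 3.07 and 2.01. As for Mrpl38, the mutant eggs of batch 1 other than egg 6 of M1 lay below all wildtype eggs, and egg 6 lay above them.

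TMM-scaled sums of Mrps15 were 7.85 and 17.7 CPM in wildtype and 2.21 to 5.63 CPM in the 6 mutant sums. In batch 2, 14 of 24 wildtype eggs had a count of it, and 40 of their 83 counts lay in egg 45, without which the raw level was 8.62 CPM in place of 15.3. The log2 fold was -1.70 ± 0.43 (edgeR adjusted p = 0.018), and -1.86 without egg 6 of M1 (edgeR adjusted p = 0.0119). Without wildtype egg 45 the fold was -1.30 and the call was lost (edgeR adjusted p = 0.0629). Without the wildtype sum of batch 2 it was -1.19 (edgeR adjusted p = 0.326).

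Mrpl2, a large subunit protein at the heart of the bacterial ribosome too (chromosome 17, 46646229 to 46650139), was the most abundant of the 4. Wildtype eggs of batch 1 held 85.8, 57.9, 47.2, 44.2 and 63.3 raw CPM of Mrpl2. M1 eggs held 43.7, 59.3, 71.5 and 45.8, M2 eggs 57.4 and 51.6, and M3 eggs 30.4, 32.6 and 26.5. The eggs of M3 lay well below all wildtype eggs, M1 egg 6 just below the lowest, and the others within their range. In batch 2 the medians were 52.9 in wildtype (0 to 206), 61.5 in M1, 57.3 in M2 and 44.2 in M3, so the fall there stood in the sums (96.6 CPM in wildtype against 45.8, 51.7 and 43.1 after TMM scaling) and not in the medians. The log2 fold of Mrpl2 was -0.76 ± 0.23 (edgeR adjusted p = 0.0465). The call sat at the threshold, and was lost without egg 6 of M1 (-0.72, edgeR adjusted p = 0.0772) and without the wildtype sum of batch 2 (-0.45, edgeR adjusted p = 0.494). It was also lost without either M1 sum, the M2 sum of batch 2, the M3 sum of batch 1 or the activated sum, with edgeR adjusted p of 0.0529 to 0.0913.

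Mrpl27, a large subunit protein with a bacterial counterpart (chromosome 11, 94653767 to 94660089), was nearly missing from wildtype eggs. It had 1 count in all wildtype eggs of batch 1 and 0 in batch 2, where 3 counts would equal 0.552 raw CPM. Mutant sums had 84 and 19 counts in M1, 10 and 11 in M2, and 20 and 16 in M3, in the order of batches, and activated eggs had 39. In batch 1 those counts lay in 3 of 4 M1, 2 of 2 M2 and 3 of 3 M3 eggs, where egg 6 of M1 held 54 of the 84. In batch 2 they lay in 5 of 18 M1, 5 of 16 M2, 8 of 18 M3 and 11 of 17 activated eggs. The median over eggs was 0 raw CPM in each mutant group of batch 2.

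The ratio of mutant to wildtype levels of Mrpl27 in batch 1 was 65.5, with a counting interval of 11.5 to 2610. Without egg 6 of M1 it was 38.2 (6.60 to 1534). In batch 2 the wildtype sum held 0 counts, and the mutant level of Mrpl27 was 2.46 times that of 3 wildtype counts. This value leaves out the counting error of the mutant sums and the uneven spread of counts over eggs. It is therefore no lower bound of the ratio. With so few wildtype counts, Mrpl27 passed the expression filter only through sums where it was high. The fitted log2 fold of 5.30 ± 1.499 (edgeR adjusted p = 0.0319) depends on a prior count and is no bound. Its adjusted p rose to 0.0595 in edgeR without egg 6 of M1 and to 0.114, 0.052, 0.195 and 0.111 without the M1 sum of batch 1 or 2 or the wildtype sum of batch 1 or 2. Reads of the overlapping gene Eme1 cannot be told apart from those of Mrpl27 by strand.

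**Figure D3:**
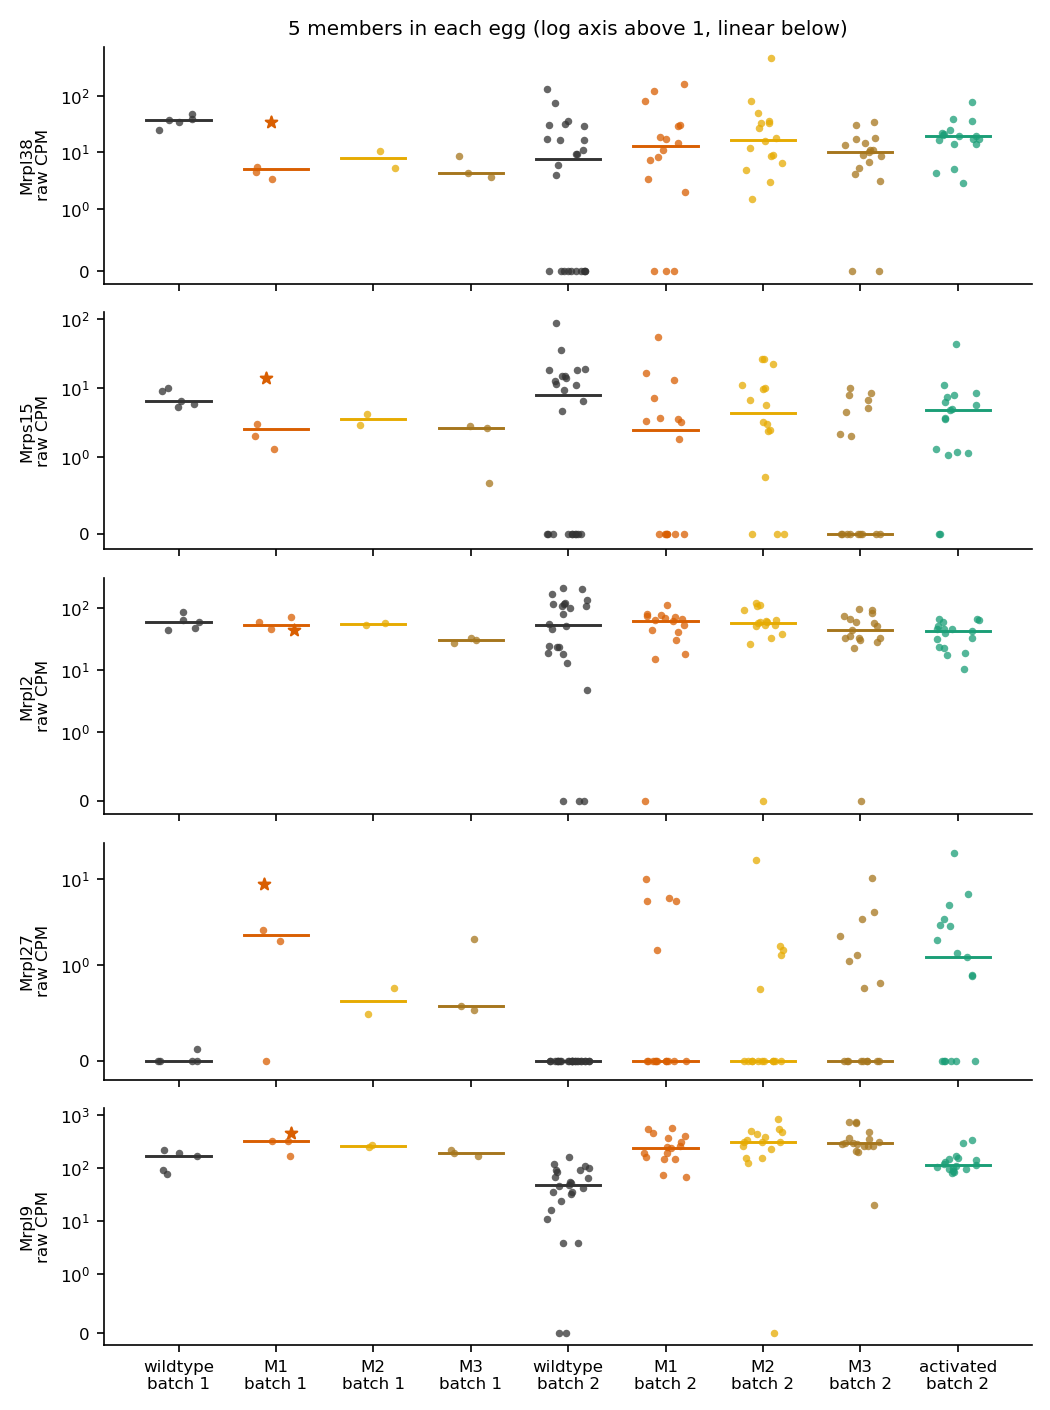
Raw CPM of Mrpl38, Mrps15, Mrpl2, Mrpl27 and Mrpl9 (y axes, logarithmic above 1 and linear below) in each egg of at least 10000 counts, by group and batch (x axis). Horizontal lines are medians over eggs, and the star is egg 6 of M1. In batch 1 the star lies at 34.4 for Mrpl38, within the wildtype eggs at 24.4 to 48.3, while the other mutant eggs lie at 3.28 to 10.4.

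The last bases of these transcripts are shown because the library method primes on the poly(A) tail and because tail length controls stored transcripts in eggs. The 30 bases end at the 3′ end of 1 GENCODE M21 transcript per gene (GRCm38), 5′ to 3′ on the gene's strand. Capitals mark the polyadenylation signals AATAAA or ATTAAA and the cytoplasmic polyadenylation element TTTTAT.
Mrpl38: atgtgAATAAAatacttttttcctgatgcc
Mrps15: acccaagtgaactAATAAAgtctgttcccg
Mrpl2: tAATAAAatgtctcttgtTTTTATctctta
Mrpl27: acaaAATAAATAAAtattttaaaaaagaga
They lie at chr11:116131817-116131846 (minus strand), chr4:126055503-126055532, chr17:46650110-46650139 and chr11:94660060-94660089 (plus strand). Each holds a polyadenylation signal, Mrpl27 has overlapping copies, and Mrpl2 alone of the 4 holds the cytoplasmic element, or its variant TTTTAAT, in its last 100 bases.

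Over the 73 tested members, 52 (71.2%) had AATAAA or ATTAAA on the transcribed strand in the last 50 bases, against 74.7% of 13170 tested genes with a transcript. The letters TTTTAT or TTTTAAT stood in the last 100 bases of 10 members (13.7%), against 17.9% of these genes. Members had short 3′ untranslated regions, with a median of 394 bases against 892.5, and short transcripts, with a median of 1339 bases against 2931. These are matches of letters, not tests of use.

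Mrpl9, the transcript of highest level per kb, differed between the wildtype sums of the batches. Its TMM-scaled level was 183 CPM in wildtype eggs of batch 1 and 60.9 in batch 2, against 205 to 343 in the 6 mutant sums and 132.4 in activated eggs. In batch 1, eggs overlapped: wildtype eggs held 78.2, 219, 193, 91.6 and 174 raw CPM, M1 eggs 466, 172, 323 and 322, M2 eggs 249 and 272, and M3 eggs 193, 223 and 173. In batch 2 the medians were 47.5 in wildtype, 246 in M1, 316 in M2 and 303 in M3.

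Mrpl9 did not pass the test of mutant against wildtype (log2 fold 1.25 ± 0.40, edgeR adjusted p = 0.0965). It was called under 9 alternatives, among them DESeq2, limma voom and edgeR without the filter on low counts, and without either M3 sum (edgeR adjusted p = 0.00695 and 0.0352) or the wildtype sum of batch 1 (0.000595). The ratio of mutant to wildtype was 0.50 in batch 1 and 2.34 in batch 2 on the log2 scale. The difference between batches was 1.83 ± 0.37 (edgeR adjusted p = 0.177), and DESeq2 called it.

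Mrpl18, a large subunit protein with a bacterial counterpart, was at 48.4 and 64.1 CPM in wildtype sums and 42.2 to 140.985 in mutant sums, which overlap (log2 fold 0.52 ± 0.24, edgeR adjusted p = 0.2). Mrpl23 and Mrpl52 had too few counts for a fold to be read: their sums held at most 1.10 CPM, and egg 6 of M1 held all 4 Mrpl23 and all 13 Mrpl52 counts of the M1 eggs of batch 1. Mrps30 (29.5 and 33.1 CPM in wildtype sums, 14.5 to 39.9 in mutant sums) and Mrps36 (2.14 and 5.55 against 2.74 to 3.58) overlapped and did not pass the test, with edgeR adjusted p of 0.39 and 0.9.

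Calls were then counted by subunit and by origin of the proteins. Of 48 tested large subunit members 1 rose and 2 fell (6.25%, median log2 fold 0.17). Of 24 small subunit members 1 fell (4.17%, median -0.08). Among all genes 9.38% were called. The 1 that rose was Mrpl27, which passed the expression filter only through sums where it was high. Without wildtype egg 45, 4 of 47 large subunit members passed as higher and 5 as lower (19.1%, median 0.25). So did 2 of 24 small subunit members as higher (8.33%, median 0.03), against 12.2% of all genes called. With all eggs, of 44 members with a bacterial counterpart 1 rose and 2 fell (6.82%, median 0.15). Of 28 without one 1 fell (3.57%, median -0.10). These few calls show no difference between the classes, and none was tested. Members that nearly passed, named after their values were seen, were Mrpl40, Mrpl21 and Mrpl45 among the lower ones and Mrpl55 among the higher ones, with edgeR adjusted p of 0.0617, 0.0659, 0.0787 and 0.0676. Their mutant sums lay apart from both wildtype sums for Mrpl40 (37.1 to 54.3 against 71.8 and 75.6 CPM), Mrpl45 (38.6 to 47.5 against 59.4 and 76.5) and Mrpl55 (3.62 to 11.3 against 2.14 and 2.98), and overlapped for Mrpl21. These members were picked by p from the same sums, so the separation adds no support. The share of all genes set apart in this way was not counted.

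Activated eggs were set against wildtype eggs to see what follows an artificial exit from arrest. The test called 2 of 73 members, against 13% of all genes. Mrpl2 fell and Mrpl27, which passed the filter only through sums where it was high, rose. Of all genes 7.33% fell and 5.66% rose. The median log2 fold of the members was -0.19, beside 0.15 for all genes, and 41 of 73 were below 0 (56.2%, against 45% of all genes). This direction did not hold throughout: the median was 0.05, beside 0.17, without wildtype egg 45, where 5 of 72 members passed against 14.4% of all genes, 0.03 with limma voom, 0.05 in thinned eggs, 0.17 with mean log2 CPM over eggs, and -0.07 without the wildtype sum of batch 2. At an unadjusted p under 0.05 there were 15 members, 12 of them lower (20.5%, against 25.4%). Activated eggs formed 1 sum on a plate of their own, assumed to vary like the other groups.

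The 17 activated eggs held 10.2 to 66.5 raw CPM of Mrpl2 with a median of 41.5, within the range of wildtype eggs of batch 2 (0 to 206, median 52.9). Their sum was 35.6 CPM after TMM scaling, below both wildtype sums (62.8 and 96.6). The log2 fold of Mrpl2 was -1.23 ± 0.39 (edgeR adjusted p = 0.0437), and its call was lost under upper quartile scaling (-1.09, edgeR adjusted p = 0.0775), without egg 6 of M1 (-1.21, edgeR adjusted p = 0.0611), without the M3 sum of batch 1 (-1.19, edgeR adjusted p = 0.053) and without the wildtype sum of batch 2 (-0.88, edgeR adjusted p = 0.253). Mrpl27 had 39 counts in activated eggs against 0 in wildtype eggs of batch 2 (edgeR adjusted p = 0.0215). Its activated level was 5.23 times that of 3 wildtype counts, which leaves out the error of the activated counts and is no lower bound. Here too Mrpl27 passed the expression filter only through sums where it was high. Its highest activated egg held 15 of the 39 counts, and its call was lost without the M1 sum of either batch, which enter through the shared spread and the batch term (edgeR adjusted p = 0.0755 and 0.0544), or without a wildtype sum (0.0887 and 0.0658).

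Mrpl38 and Mrps15 did not pass the test in activated eggs. Mrpl38 was at 17.3 CPM against 38.98 and 28.4 in wildtype sums (log2 fold -1.46 ± 0.63, edgeR adjusted p = 0.147), and Mrps15 at 4.57 CPM against 7.85 and 17.7 (-1.63 ± 0.75, edgeR adjusted p = 0.177). Both activated levels lay below both wildtype sums, and Mrpl38 was called without the wildtype sum of batch 2 (-2.36, edgeR adjusted p = 0.0183). Every one of the 17 activated eggs had a count of Mrpl38, with a median of 19.3 raw CPM (2.81 to 78.3), above the wildtype median of batch 2. Mrpl9 was at 132.4 CPM, between the wildtype sums (log2 fold 0.23 ± 0.59, edgeR adjusted p = 0.861, and 1.12 with 0.0271 without the wildtype sum of batch 1), and Mrps36 was at 0.683 CPM (-2.28 ± 1.08, edgeR adjusted p = 0.193).

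**Figure D4:**
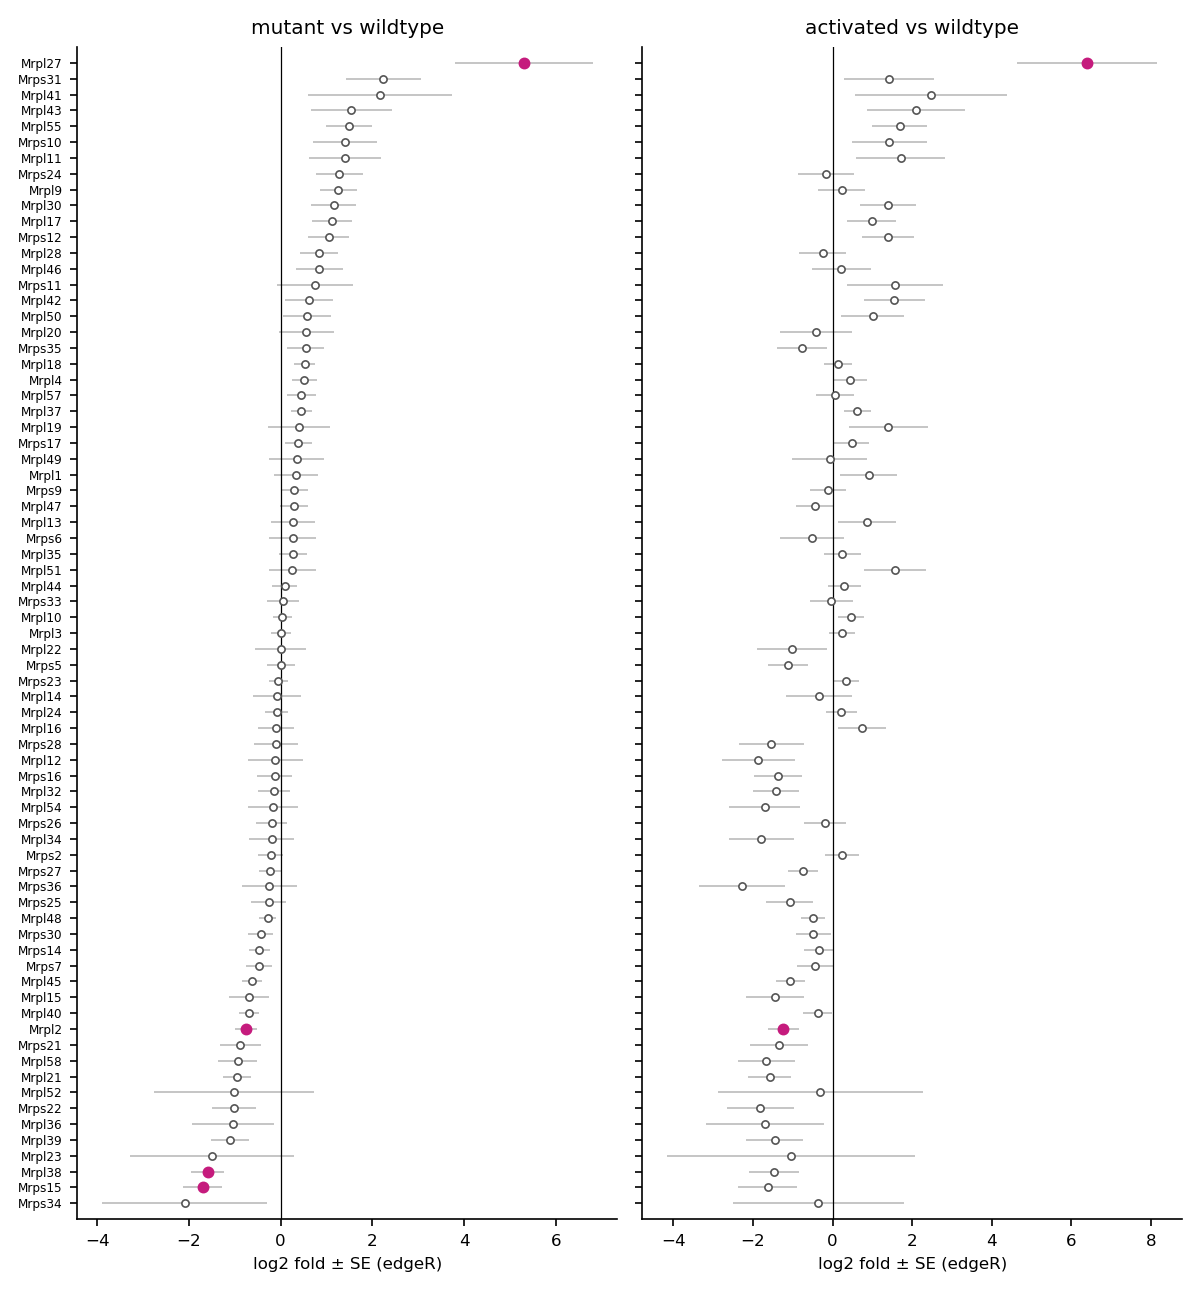
Log2 fold with its SE (x axes) of each of the 73 tested members (y axis, in the order of the mutant fold) in mutant against wildtype eggs (left) and in activated against wildtype eggs (right). Filled points passed the test at an edgeR adjusted p under 0.05: 4 on the left and 2 on the right. Both panels use the same wildtype sums.

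Activated and mutant eggs were compared directly in the same fit. No member passed (edgeR), against 4.84% of all genes (3.43% lower), and 5 members, 4 of them lower, reached an unadjusted p under 0.05, beside 17.9% of all genes. DESeq2 and limma voom called none either, beside 1050 and 671 of 13832 genes. The median log2 fold of the members was -0.09, beside 0.05 for all genes, and turned to 0.06, beside 0.20, under upper quartile scaling. The folds of Mrpl2 (-0.48 ± 0.35), Mrpl27 (1.10 ± 1.17), Mrpl38 (0.13 ± 0.51) and Mrps15 (0.06 ± 0.64) had edgeR adjusted p from 0.534 to 0.987. These errors leave room for differences of more than 2-fold in each of these genes.

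M1, M2 and M3 were compared over 9 sums per group and plate, where 70 members were tested. None passed in any of the 3 comparisons by edgeR, DESeq2 or limma voom, beside 0%, 0.0517% and 0% of 11609 genes in M2 against M1, M3 against M1 and M3 against M2. Of all genes, 0.00861% were higher and 0.0431% lower in M3 against M1. Unadjusted p under 0.05 were reached by 2, 5 and 2 members, all of them lower, beside 6.18%, 7.87% and 2.88% of all genes. The members nevertheless lay to the low side in M3: against M1 their median log2 fold was -0.43, beside 0.02 for all genes, and 54 of 70 were below 0 (77.1%, against 48.2% of all genes). In M2 against M1 46 of 70 were below 0, against 51.1% of all genes. The median was -0.20, beside -0.01, in M2 against M1, and -0.17, beside 0.02, in M3 against M2. Without the M1 sum of batch 1 the median in M2 against M1 was 0.02, beside 0.02, with 34 of 70 below 0. Over 20 other settings the medians ran from -0.28 to 0.02 in M2 against M1 and from -0.33 to -0.08 in M3 against M2, where the highest value came without the M3 sum of batch 1 and the lowest without the M3 sum of plate 1.

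The low side of M3 against M1 was shared by large subunit (median -0.43, 34 of 46 below 0) and small subunit members (-0.42, 19 of 23). It depended on batch 1 in the summed level. The level in M3 relative to M1 was 0.698 in batch 1 (0.776 without egg 6 of M1), 0.996 on plate 1 and 0.909 on plate 2 of batch 2. The medians of the members' folds ranged from -0.50 to -0.26 over 20 other settings, and stood at -0.37 without egg 6 of M1 and -0.31 without eggs 6 and 21. Egg markers moved the same way, with 12 of 12 below 0 and 3 called lower in M3. Their part in the values of the members was not tested.

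**Figure D5:**
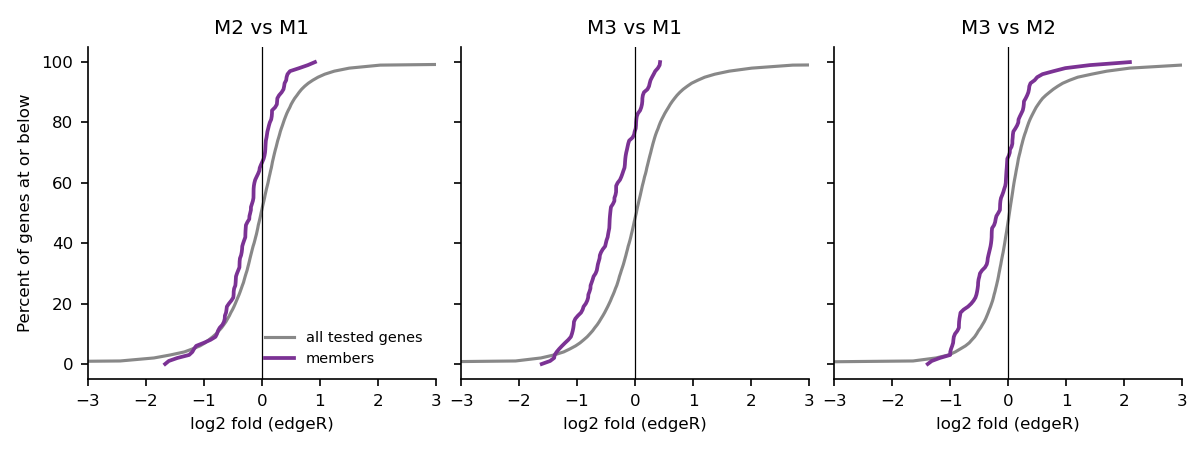
Cumulative distributions of log2 folds (x axes, cropped at -3 and 3) for the 70 tested members (purple) and all 11609 tested genes (grey) in the 3 comparisons of mutant groups; the y axis is the percent of genes at or below a fold. In M3 against M1 the purple line lies to the left, with a median of -0.43 beside 0.02.

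The difference of the mutant effect between batches was tested over 8 sums. No member and no gene passed (edgeR, 0% of 13566 genes), and 11 members (15.1%) reached an unadjusted p under 0.05, against 8.47% of all genes. Of these, 8 had a lower mutant fold in batch 2 and 6 of the 8 were small subunit members. The small subunit median of the difference was -0.48, beside 0.11 for all genes and 0.03 for the large subunit. Mrps24 and Mrps25, chosen after their values were seen, stood at log2 ratios of 2.69 and 0.64 in batch 1 and 0.31 and -0.96 in batch 2 (edgeR adjusted p = 0.391 and 0.374). In wildtype eggs of batch 2 egg 45 held 65 of the 68 counts of Mrps24, whose exons overlap Urgcp on the same strand, and 210 of the 898 of Mrps25. Without egg 45 the small subunit median was -0.10, beside 0.16 for all genes and 0.37 for the large subunit, and 9 members, 4 of them lower, reached an unadjusted p under 0.05 (8.84% of all genes). Each batch had 1 wildtype sum, so a shift of that sum cannot be told apart from a shift of the mutants.

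Genes around the ribosome were read from lists of their own. Of 8 ribosome subunits whose names fall outside the rule, none passed in mutants (4 at an unadjusted p under 0.05) and Dap3, a GTP-binding protein of the small subunit, fell in activated eggs (-1.12 ± 0.33, edgeR adjusted p = 0.0285). Of 18 translation factors, 2 rose in mutants: Lrpprc, which keeps mitochondrial mRNAs stable, by 1.42 ± 0.30, and Gfm2, the factor that recycles the ribosome, by 0.67 ± 0.21, a call lost without wildtype egg 45 (0.58, edgeR adjusted p = 0.0817). Of 24 assembly factors, 2 rose in mutants: Nsun4, an RNA methyltransferase of the ribosome, by 1.10 ± 0.19, and the GTPase Mtg2 by 3.97 ± 0.82. In activated eggs Nsun4 (1.70 ± 0.27) and Mtg2 (3.90 ± 1.03) also rose, and Rpusd4 (-2.19 ± 0.42) and Ddx28 (-1.41 ± 0.36), both needed for large subunit assembly, fell. The call of Ddx28 was lost without wildtype egg 45 (-0.74, edgeR adjusted p = 0.269). Mtif3, an initiation factor (1.28 ± 0.32), and Gfm2 (1.15 ± 0.30) rose in activated eggs.

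Of 22 tRNA synthetases of mitochondria, Gars1 rose (0.65 ± 0.20) and Sars2 fell (-1.54 ± 0.42; without wildtype egg 45 -1.20, edgeR adjusted p = 0.0853) in mutants, and none passed in activated eggs (edgeR, 4 at an unadjusted p under 0.05). Of 16 genes of mitochondrial transcription and DNA, 3 rose in mutants. These were the helicase Twnk (1.94 ± 0.41), the RNase P subunit Prorp (1.95 ± 0.43) and Tfam, which packs mitochondrial DNA (1.78 ± 0.49). Exons of Twnk and the member Mrpl43 overlap on opposite strands, so their reads cannot be told apart by strand. Prorp also rose in activated eggs (3.01 ± 0.57). Of 9 tested genes encoded by mitochondrial DNA, whose mRNAs this ribosome translates, none passed in mutants or activated eggs, nor reached an unadjusted p under 0.05 (edgeR). The background for all these counts is the same 9.38% and 13% of genes as above.

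The promoters of members were read in RefSeq windows of GRCm38.p6, from 250 bases before to 50 after each start, found for 66 of the 75. The letters CCGGAAG are the core bound by ETS factors such as GABP, a known regulator of nuclear genes for mitochondria. They stood on either strand in 23 of 66 members (34.8%) and in 9.93% of 27025 genes. These were all genes with a window, not only those tested in eggs. A match in each of Mrpl27, nearly missing from wildtype eggs, Mrpl18, high in all groups, and Mrpl53, at 0 in all eggs, is shown in capitals, on the gene's strand.
Mrpl27: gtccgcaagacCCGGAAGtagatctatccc
Mrpl18: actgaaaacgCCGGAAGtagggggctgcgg
Mrpl53: ccgcggagccgCCGGAAGcggtccgttcca
They lie at chr11:94653725-94653754 (plus strand), chr17:12916312-12916341 (minus strand) and chr6:83109038-83109067 (plus strand). Mrpl53 holds another match, in reverse, at chr6:83109081-83109110, which is not shown. The Mrpl18 window lies inside the GENCODE span of that gene (12911349 to 12916345), past its GENCODE start. Genes of very unlike levels thus held the same letters, which describe the windows and test nothing.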

How the data were processed

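The table the authors deposited holds raw counts (whole numbers) for each gene and egg. STAR and HTSeq, with GRCm38 (mm10), are named by the submitters' processing notes. Their versions, the annotation and the use of strand were not given in the sources used here. Positions, exon lengths and 3′ ends came from GENCODE M21, promoters from RefSeq.

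Eggs were added up by group and batch. Terms for group and batch were fitted in edgeR 4.0.16 (R 4.3.3) after TMM scaling and filterByExpr (minimum count 10), by robust quasi-likelihood F tests, with 3 residual degrees of freedom and Benjamini-Hochberg adjustment over all genes at 0.05. The mutant fold was the mean of M1, M2 and M3 over wildtype. M1, M2 and M3 were compared by plate with plate as a block, batch 1 taken as 1 plate. A p-value here reflects only the unequal shift of groups from one batch or plate to another, which may be technical, and M1, M2 and M3 may share animals. Standard errors were derived from the fold and its F value. Per-egg values leave out 3 eggs under 10000 counts. Intervals cover counting error only, at 95%. Scripts were tested on simulated data.

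Members and lists were chosen with earlier results of these data known. Named genes were the called members, the 4 highest and 2 lowest per kb, Mrps30, Mrps36, up to 3 called genes of each other list, and Mos. Alternatives used DESeq2 1.42.0, limma 3.58.1, other scalings, filters and sums, thinned eggs (60000 counts) and sets without single sums or eggs.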

Additional observations from a re-analysis of the deposited data

Results flagged for a closer look

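In 24 checks of groups of 4 or 5 eggs of batch 1, 7 values lay further from the others than the spread of those eggs allows at the 95% level. Chance gives about 1 in 20, but this rate does not hold where all other eggs held 0, since any count is then flagged. That was so for the flagged values of Mrpl27, Mrpl23 and Mrpl52. The checks also share the same eggs, so the flags of 1 egg are not independent. Egg 6 of M1 gave 5 of the 7, with 34.4 raw CPM of Mrpl38 (others 3.28 to 5.48), 14.1 of Mrps15 (others 1.31 to 3.07), 8.29 of Mrps36 (others 1.97 to 2.56), 2.11 of Mrpl52 (others 0) and 0.650 of Mrpl23 (others 0). It also held the most Mos of any egg of batch 1, 17.9 raw CPM. The other flagged values were 0.118 raw CPM of Mrpl27 in wildtype egg 2, from 1 count, and 0.246 of Mrpl23 in wildtype egg 4, from 2 counts, with 0 in the other wildtype eggs.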

How the results depend on the processing

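No paired analysis was possible because the fits used sums over eggs per group and batch or plate, which carry no replicate number; batch and plate entered the fits as terms, but no label pairs single eggs. No called fold of a named member changed sign under any alternative run.

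Against the 4 members called in mutants, DESeq2 and limma voom called 8 each. The fit without a filter called 9, sums per plate 1, and the fit without a batch term 0. Calls over all genes moved too. They were 1298 of 13832 by the fit reported above, 1843 by DESeq2, 1669 by limma voom and 1755 of 17820 without a filter. Sums per plate gave 409 of 13360, and no batch term gave 51. With each sum left out in turn 1 to 6 members were called, 1 without the M1 sum of batch 1 and 2 without that of batch 2. With a mutant or the activated sum left out, calls over all genes ran from 782 to 1262. Eggs 6 and 21 of M1 and egg 45 of wildtype were left out after seeing the data. The members called were 2 without egg 6, 3 without eggs 6 and 21, and 11 without egg 45. The genes called were 1197, 1218 and 1695, in the same order. Of 24 alternatives, Mrpl38 kept its call in 18, Mrps15 in 19 and Mrpl2 in 10, and Mrpl27 kept it in 13 of 22.

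Against the 2 members called in activated eggs, thinned eggs gave 4 (55 members tested), pooled mutants 5, no filter 4 and limma voom 1. Mean log2 CPM over eggs gave 1 (Mrpl4), upper quartile scaling 1 (none lower), sums per plate 0 and no batch term 0. Calls over all genes were 1797 of 13832 by the fit reported above. They were 1753 of 8828, 2317 of 14483, 2221 of 17820 and 1993 for the first 4 alternatives. The others gave 1173, 1834, 666 of 13360 and 196, in the same order. With each sum left out 1 to 7 were called: 7 without the wildtype sum of batch 1, and 1 without the M1 sum of either batch or the wildtype sum of batch 2. Without egg 6 of M1, or eggs 6 and 21, 1 was called, and without egg 45 of wildtype 5. Calls over all genes were 1690, 1710 and 1999 there, and ran from 1437 to 1890 with a mutant sum left out.

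Against 0 in activated and mutant eggs compared directly, 1 was called with thinned eggs, with pooled mutants and without a filter, and 0 to 1 with a sum left out (1 without the M3 sum of batch 2 or either wildtype sum). The difference between batches gave 1 call, Mrpl9, by DESeq2 and without a filter, against 0, and 0 with each sum left out. Comparisons among M1, M2 and M3 gave 0 calls in every alternative run. Calls over all genes in activated against mutant eggs were 670 of 13832 by the fit reported above. They were 842 of 8828 in thinned eggs, 725 of 14483 with pooled mutants and 1099 of 17820 without a filter. The difference between batches gave 112 of 13566 genes by DESeq2 and 36 of 17324 without a filter. Upper quartile scaling moved the median of all genes in activated against wildtype from 0.15 to 0.30.

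The summed log2 ratio of mutant to wildtype in batch 2 (0.30) was 0.49 by medians over eggs, 0.053 without the 9 wildtype eggs with counts in few genes, -0.018 under TMM scaling, 0.59 in thinned eggs, 0.12 without the 5 most abundant members and 0.50 without egg 45. The ratio of activated to wildtype (0.09) was 0.23, -0.15, -0.24, 0.31, 0.039 and 0.29, in the same order. With a mutant sum left out the mutant ratio ran from 0.09 to 0.35 (batch 1) and from 0.26 to 0.34 (batch 2). The cause of these differences was not tested. Depth limits the members of few counts: 22 of the 73 had a mean under 5 CPM.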
